A study of Mus musculus with 6 samples.

Results

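Protein prenylation enzymes attach farnesyl or geranylgeranyl groups to small GTPases, lamins and other proteins, and CAAX processing enzymes then finish the modified end. The genes were chosen by name: Ggps1, Fnta, Fntb, Pggt1b, Rabggtb and Icmt. Of these 6 genes, 5 were measured with 11 transcripts, out of 8513 genes with 15905 transcripts in all; Fntb, the beta subunit of farnesyltransferase, was not analysed here. RNA had been sequenced from B16.F10, a wild-type mouse melanoma line that makes pigment, after 24 h with 3.5 µM simvastatin (3 samples) or with no treatment (3 samples), and the labels name no vehicle for the untreated cells. The labels give this dose as the half-maximal inhibitory one of an earlier study. All 9 melanocyte lineage markers looked for were measured, no fibroblast or endothelial marker was, and of the 5 leukocyte markers only Cd68 was, at 0.93 with simvastatin and 0.37 in control. The authors' deposited table gives 1 value per group for each transcript, so no SD could be computed. The depth of each sample is unknown, and the table does not name its unit, so changes were read between groups. Levels of different genes or transcripts were set beside each other only for gene sums and shares, for choosing which to show and for a background range.

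Statins block HMG-CoA reductase, the enzyme that makes mevalonate. Mevalonate is turned into farnesyl diphosphate, from which Ggps1 makes geranylgeranyl diphosphate. Farnesyltransferase and geranylgeranyl transferase I act on proteins that end in a CAAX box and share the alpha subunit encoded by Fnta, while Fntb and Pggt1b encode their beta subunits. The Rab geranylgeranyl transferase acts on Rab proteins, has Rabggta and Rabggtb as subunits and receives the Rab from an escort protein such as Chm. After the prenyl group is attached to a CAAX protein, Rce1 or Zmpste24 removes the last residues and Icmt methylates the exposed cysteine. The question was whether a block of isoprenoid supply is followed by a change in the transcripts of the enzymes that use isoprenoids.

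No transcript of these enzymes passed the authors' adjusted p of 0.05 in either direction. In RNA from whole cultures, fewer cells with a transcript and less of it per cell cannot be told apart. Of all 15905 transcripts of the authors' deposited table, 176 were higher at that threshold (1.11%) and 157 were lower (0.987%), so a count of 0 among 11 lies near the background. The adjusted p-values of the 11 transcripts ran from 0.171 to 0.953 in the authors' deposited table. Of the 11, 1 had an unadjusted p under 0.05, that of Pggt1b, against 19.6% of all transcripts in the authors' deposited table, and none carried the authors' own call, against 9.5% of all transcripts. By size, 1 transcript was at least 1.5-fold lower and none at least 1.5-fold higher, against 21.5% and 23.1% of all transcripts.

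The measured transcripts of the enzymes were often not the annotated coding ones. Of the 11, 5 were models assembled from reads, whose exon structure was not used here, beside 26.8% of all transcripts, and 6 carried Ensembl identifiers. In GENCODE M21 (GRCm38), 2 of these 6 are protein coding (Ggps1-201 and Fnta-201), 3 are annotated as targets of nonsense-mediated decay, the pathway that degrades messages with an early stop codon, and 1 retains an intron. Over all 11635 Ensembl transcripts of the table found in GENCODE, 77.7% are protein coding, 3.8% are decay targets and 9.53% retain an intron. Short sequences, among other differences, set these 4 non-coding or early-stop transcripts apart from the coding transcripts Icmt-201, Rabggtb-201 and Fnta-201. Because part of the value of each of these genes was assigned to these transcripts, the sequences are shown. They are from the GENCODE M21 transcripts, 5′ to 3′ on the gene's strand, with capitals marking the early stop codon in the Icmt-204 and Rabggtb-211 lines, the bases left out of the message in the Rabggtb-205 line and the retained intron in the Fnta-204 line.
Icmt-204, start of its extra exon, chr4:152299137-152299170, plus strand: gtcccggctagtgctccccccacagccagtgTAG
Rabggtb-211, start of its extra exon, chr3:153910139-153910161, minus strand: gtcccactaagcagttggtcTAA
Rabggtb-205, exon start of the coding transcript, chr3:153908880-153908915, minus strand: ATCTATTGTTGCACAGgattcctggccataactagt
Fnta-204, intron end and exon start, chr8:26001013-26001072, minus strand: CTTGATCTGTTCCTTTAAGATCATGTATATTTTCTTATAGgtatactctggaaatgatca

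The extra exon of Icmt-204 has 109 bases in a transcript of 4950, and that of Rabggtb-211 has 98 bases in a transcript of 1169. Rabggtb-205 lacks 16 bases of an exon, and both Rabggtb transcripts start after the first exon of Rabggtb-201. Fnta-204 starts inside an intron of Fnta-201, keeps 126 intron bases there and lacks the exons before that intron. The remaining exon sequence is largely shared with the coding transcripts, so the split of shared reads between transcripts of one gene rests on the authors' estimate and is uncertain.

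**Figure D1:**
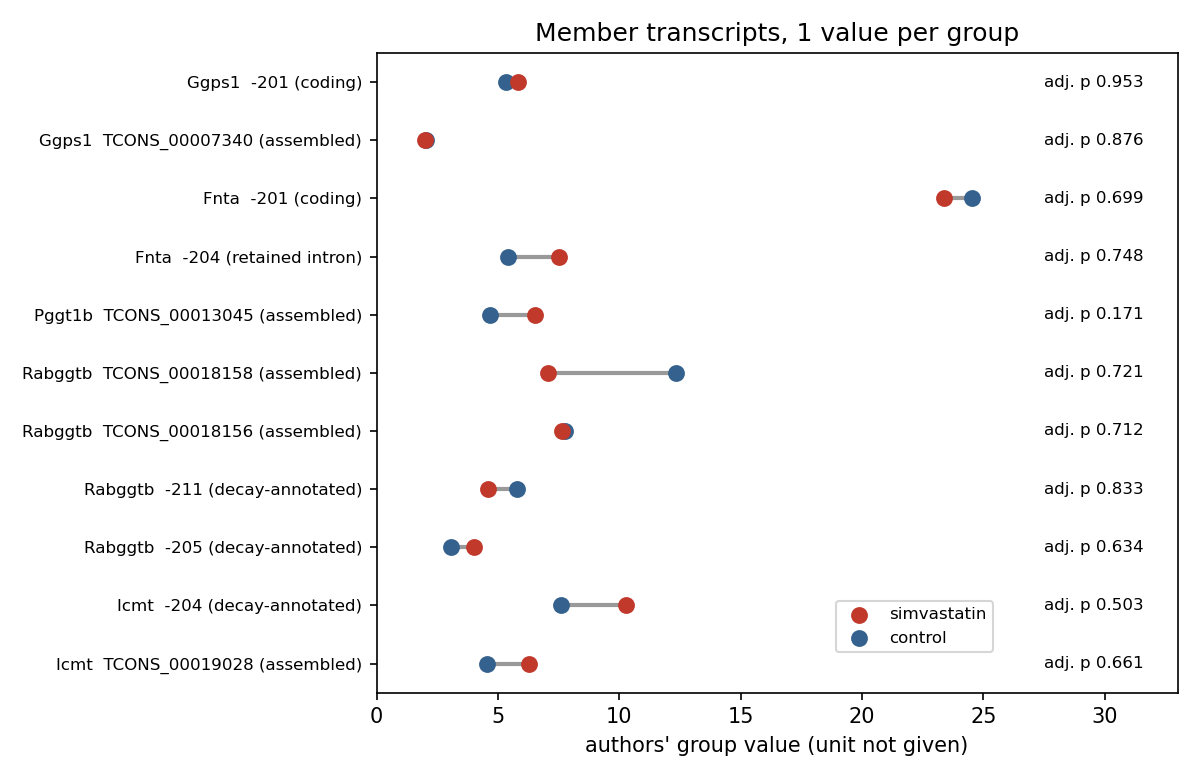
Authors' group value of each of the 11 transcripts (horizontal axis, unit not given), simvastatin in red and control in blue, joined by a grey line, with the authors' adjusted p at the right. The widest gap is that of the assembled Rabggtb transcript TCONS_00018158, at 7.05 with simvastatin and 12.35 in control.

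Ggps1, the synthase that supplies geranylgeranyl diphosphate, had close values in the groups. Its coding transcript Ggps1-201 (gene at chromosome 13, 14050659 to 14063488, minus strand) had values of 5.82 with simvastatin and 5.31 in control (adjusted p = 0.953 in the authors' deposited table). Its assembled transcript had 1.99 with simvastatin and 2.04 in control (adjusted p = 0.876 in the authors' deposited table). The 2 transcripts pointed in opposite directions, and neither passed. Summed over both, the gene stood at 7.81 with simvastatin and 7.35 in control, a log2 ratio of 0.09, which is larger than that of 55.3% of all genes.

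Fnta, which encodes the alpha subunit of both CAAX transferases (chromosome 8, 25998722 to 26015650, minus strand), had close totals in the groups as well. The coding transcript Fnta-201 had 23.38 with simvastatin and 24.52 in control (adjusted p = 0.699 in the authors' deposited table). The retained-intron transcript Fnta-204 had 7.51 with simvastatin and 5.40 in control, a 1.39-fold higher value that did not pass (adjusted p = 0.748 in the authors' deposited table). The gene total was 30.89 with simvastatin and 29.92 in control, a log2 ratio of 0.05. With the most abundant transcript alone the sign turned, to -0.069. The retained-intron transcript made up 24.3% of the gene's summed value with simvastatin and 18.0% in control, a difference in share that could not be tested.

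Pggt1b, the beta subunit that pairs with Fnta in geranylgeranyl transferase I, had the smallest p-values among these enzymes. Its assembled transcript, the only one of the gene measured, had 6.54 with simvastatin and 4.68 in control, 1.40-fold higher (unadjusted p = 0.023, adjusted p = 0.171 in the authors' deposited table). It did not pass the adjusted threshold. The log2 ratio of 0.48 was larger than that of 81.6% of all genes.

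Rabggtb, the beta subunit of the Rab transferase (chromosome 3, 153907287 to 153913009, minus strand), was measured with 4 transcripts that did not point one way. The assembled transcript TCONS_00018158 had 7.05 with simvastatin and 12.35 in control, 1.75-fold lower (adjusted p = 0.721 in the authors' deposited table). This was the largest fold of the 11 transcripts, and it had a larger p than the 1.40-fold difference of Pggt1b. The other assembled transcript, TCONS_00018156, had 7.65 with simvastatin and 7.75 in control (adjusted p = 0.712 in the authors' deposited table). The decay-annotated Rabggtb-211 had 4.58 with simvastatin and 5.80 in control (adjusted p = 0.833 in the authors' deposited table). The other decay-annotated transcript, Rabggtb-205, was on the higher side, with 4.00 with simvastatin and 3.06 in control (adjusted p = 0.634 in the authors' deposited table). In all, 3 of the 4 transcripts were on the lower side and 1 on the higher side, and none passed. The gene total was 23.28 with simvastatin and 28.96 in control, a log2 ratio of -0.31, the only negative one among the 5 genes. Most of this gap came from TCONS_00018158, which made up 30.3% of the gene's value with simvastatin and 42.6% in control, and with Ensembl transcripts only the log2 ratio was -0.05.

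The partners of Rabggtb were looked at beside it, chosen for their roles after their values were seen. Rabggta, the alpha subunit, had a total of 3.01 with simvastatin and 3.62 in control, from a transcript at 2.82 with simvastatin and 2.07 in control and one at 0.19 with simvastatin and 1.55 in control (adjusted p of 0.654 and 0.377 in the authors' deposited table). Chm, the Rab escort protein, had 6.57 with simvastatin and 4.84 in control (adjusted p = 0.166 in the authors' deposited table). None of the 3 genes of this enzyme passed.

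Icmt, the methyltransferase that completes CAAX processing (chromosome 4, 152297227 to 152307121, plus strand), was on the higher side in both of its transcripts. The decay-annotated Icmt-204 had 10.28 with simvastatin and 7.60 in control, 1.35-fold higher (adjusted p = 0.503 in the authors' deposited table). The assembled transcript had 6.27 with simvastatin and 4.53 in control, 1.38-fold higher (adjusted p = 0.661 in the authors' deposited table). Neither passed, and the 2 folds were alike, so Icmt-204 made up 62.1% of the gene's value with simvastatin and 62.7% in control. The gene total was 16.55 with simvastatin and 12.13 in control, a log2 ratio of 0.45, larger than that of 79.9% of all genes. Of the proteases that act before Icmt, also chosen for their role after their values were seen, Rce1 had 2.72 with simvastatin and 2.32 in control and Zmpste24 had 19.86 with simvastatin and 18.22 in control (adjusted p of 0.991 and 0.587 in the authors' deposited table).

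**Figure D2:**
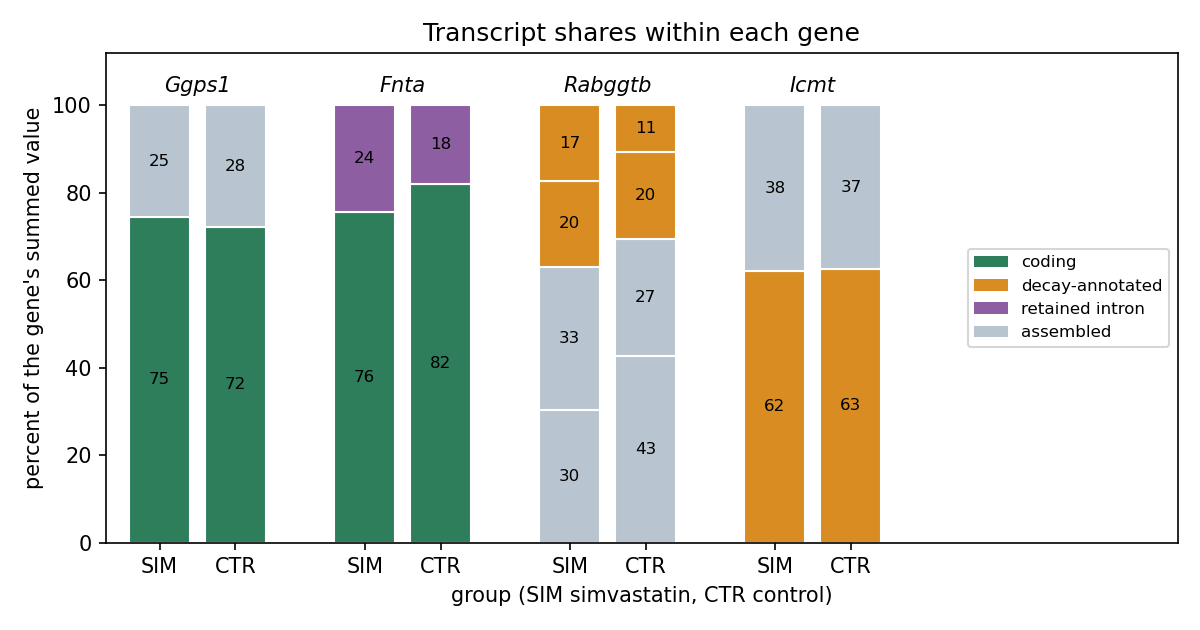
Share of each transcript in its gene's summed value (vertical axis, percent) for the 4 genes with more than 1 transcript, simvastatin (SIM) left of control (CTR), coloured by GENCODE transcript type. Rabggtb and Fnta differ most between the groups, with TCONS_00018158 at 30.3% with simvastatin and 42.6% in control and Fnta-204 at 24.3% with simvastatin and 18.0% in control, while Icmt-204 is at 62.1% with simvastatin and 62.7% in control.

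Over the 5 genes the median log2 ratio of gene totals was 0.09, with 4 ratios above 0, beside a median of 0.02 over all genes, of which 51.7% were above 0. The middle of all genes, between the lower and the upper quartile, ran from -0.32 to 0.35. Ggps1, Fnta and Rabggtb lay within it, and Pggt1b and Icmt above it. The totals of Pggt1b, Rabggtb and Icmt hold only assembled or decay-annotated transcripts, and none annotated as coding. The deposited values sum to less in the simvastatin group, and scaling both groups to one sum would shift every log2 ratio up by 0.20 without turning the sign of any of the 5 genes.

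The 8 genes listed as isoprenoid supply, Hmgcs1 to Fdps and Fdft1, stood higher. All 8 had log2 ratios of gene totals above 0, from 0.43 to 1.68 with a median of 1.09. The prenylation and CAAX processing enzymes, with Ggps1 among them, ran from -0.31 to 0.48. Fdft1, at 1.17, uses farnesyl diphosphate to make squalene and does not itself supply prenylation. Ggps1, at 0.09, supplies geranylgeranyl diphosphate but was counted among the prenylation enzymes. By the adjusted p, 1 of the 8 rose and none fell, beside 2.03% and 1.81% of all genes with a transcript higher or lower in the authors' deposited table. At an unadjusted p under 0.05, 6 of the 8 had a higher transcript and 1 a lower one, beside 15.8% and 17.5% of all genes in the authors' deposited table. The riser by the adjusted p was Hmgcs1, which makes HMG-CoA: its assembled transcript rose to 95.03 with simvastatin, against 27.29 in control (adjusted p = 0.041 in the authors' deposited table). Its second transcript was on the lower side, with 4.84 with simvastatin and 7.11 in control (unadjusted p = 0.028, adjusted p = 0.188 in the authors' deposited table). Hmgcs1 was therefore counted both as higher and as lower at the unadjusted threshold. Fdps, which makes the farnesyl diphosphate used by farnesyltransferase and by Ggps1, had a total of 240.4 with simvastatin and 127.93 in control, and the smallest adjusted p of its transcripts was 0.057 in the authors' deposited table. The ranges of the supply genes and the prenylation enzymes overlapped at Pmvk, Pggt1b and Icmt, and the difference between the lists was not tested, since no value per sample was used.

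**Figure D3:**
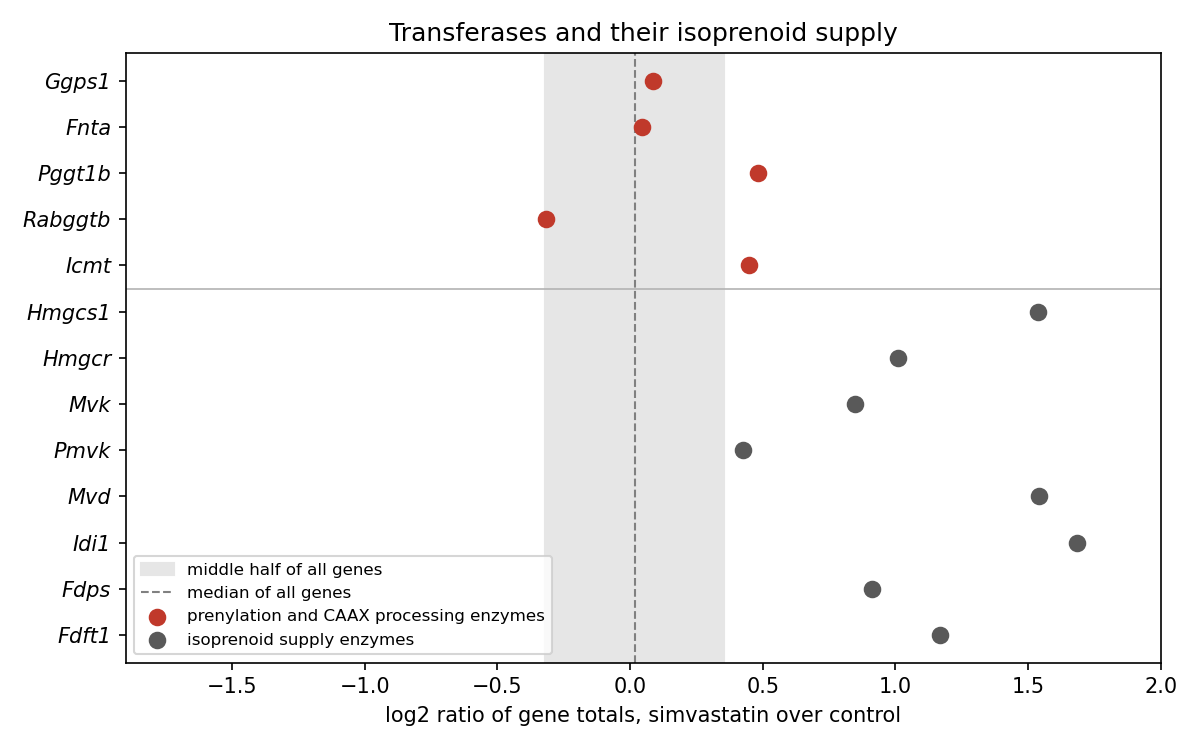
Log2 ratio of gene totals, simvastatin over control (horizontal axis), for the 5 prenylation and CAAX processing enzymes (red, top) and the 8 enzymes listed as isoprenoid supply (grey, bottom), with the median of all genes dashed and their lower to upper quartiles shaded. Ggps1, which supplies geranylgeranyl diphosphate, is among the red points, and Fdft1, which uses farnesyl diphosphate, is among the grey points. The red points lie between -0.31 and 0.48 and the grey points between 0.43 and 1.68.

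The upstream sequences of Ggps1, Rabggtb and Hmgcs1 are shown to set 2 of the enzymes beside a supply gene that rose. Hmgcs1 was picked after its rise was seen. Each is the 250 bases before the RefSeq start (GRCm38.p6), searched on both strands for the sterol regulatory element letters TCACNCCAC, bound by the SREBP factors, and for the CCAAT box, which often lies beside such elements. Capitals mark every match, written as it lies on the gene's strand.
Ggps1, chr13:14063489-14063738, minus strand: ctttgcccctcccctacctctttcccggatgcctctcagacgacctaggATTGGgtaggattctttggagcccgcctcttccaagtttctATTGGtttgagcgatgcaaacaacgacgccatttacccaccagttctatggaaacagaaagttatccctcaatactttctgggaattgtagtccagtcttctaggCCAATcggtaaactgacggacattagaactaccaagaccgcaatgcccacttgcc
Rabggtb, chr3:153912967-153913216, minus strand: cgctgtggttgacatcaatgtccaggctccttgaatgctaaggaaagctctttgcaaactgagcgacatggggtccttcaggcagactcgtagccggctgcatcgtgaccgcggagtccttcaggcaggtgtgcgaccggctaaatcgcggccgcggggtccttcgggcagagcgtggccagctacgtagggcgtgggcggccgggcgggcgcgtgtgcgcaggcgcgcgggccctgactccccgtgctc
Hmgcs1, chr13:119690101-119690350, plus strand: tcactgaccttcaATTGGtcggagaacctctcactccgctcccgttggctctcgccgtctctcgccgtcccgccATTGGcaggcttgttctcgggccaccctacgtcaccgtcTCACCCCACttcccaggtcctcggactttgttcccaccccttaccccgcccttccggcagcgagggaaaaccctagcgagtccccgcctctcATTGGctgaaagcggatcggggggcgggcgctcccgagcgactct

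The Hmgcs1 window held 1 match to TCACNCCAC, and the windows of Ggps1 and Rabggtb held 0. Among 27025 RefSeq promoters, 1.04% held a match in a window of this length, so 0 matches in 2 windows lies near the background. CCAAT was found 3 times in the Ggps1 window, 3 times in the Hmgcs1 window and 0 times in the Rabggtb window, and at least once in 34.5% of all windows. The 2 motifs did not overlap. A match describes letters and is not a measured site. Windows of Fnta, Pggt1b, Icmt and the other supply genes are not described here. Whether a match goes with the change of a gene was not tested.

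Other genes around the pathway were described in 6 further lists. Of 11 measured genes listed as further prenylation and CAAX processing factors, none passed in either direction (median log2 ratio of totals 0.16). The list is wider than its name and also holds genes of palmitoylation and prenylcysteine breakdown, such as Golga7 and Pcyox1. Among the 11, 1, Chm, was higher at an unadjusted p under 0.05. At that unadjusted threshold 15.8% of all genes had a higher transcript and 17.5% a lower one in the authors' deposited table. Those with the highest deposited values were Golga7, a partner of Ras palmitoylation, with 43.19 with simvastatin and 34.37 in control, and Pcyox1, a prenylcysteine oxidase, whose larger transcript had 25.65 with simvastatin and 20.03 in control (adjusted p of 0.266 and 0.621 in the authors' deposited table). Of 4 measured genes that use polyprenyl diphosphates elsewhere none passed, with or without adjustment (median -0.25, and -0.05 with both groups scaled to one sum). They include Nus1, of dolichol synthesis, with 43.38 with simvastatin and 40.31 in control, and Coq2, of ubiquinone synthesis, whose larger transcript had 11.57 with simvastatin and 15.67 in control (adjusted p of 0.357 and 0.412 in the authors' deposited table). Of 9 prenyl-binding chaperones and GDP dissociation inhibitors none passed, 1 was higher at an unadjusted p under 0.05, and their median of -0.04 turned to 0.16 with both groups scaled to one sum. Those with the highest values, the inhibitor genes Arhgdia and Arhgdib, had totals of 309.14 and 107.29 with simvastatin, and 290.25 and 138.5 in control.

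Genes listed as encoding proteins that these enzymes modify were counted by class. The lists were made by gene name, and the prenyl group of each protein was not checked here. Of 18 measured genes of farnesylated proteins, 2 rose and 2 fell, beside 2.03% and 1.81% of all genes with a transcript higher or lower in the authors' deposited table. At an unadjusted p under 0.05, 3 of the 18 were higher and 9 lower in the authors' deposited table. The shares of all genes at that threshold were 15.8% higher and 17.5% lower. Of the 18 log2 ratios of totals, 13 were below 0 (median -0.28, and -0.08 with both groups scaled to one sum). Lmnb1, for lamin B1, fell to 20.11 with simvastatin, against 47.49 in control, and Dnaja2, a co-chaperone, fell to 33.62 with simvastatin, against 40.70 in control (adjusted p of 0.042 and 0.033 in the authors' deposited table). Of the genes that rose, a transcript of the phosphatase gene Ptp4a1 stood at 29.57 with simvastatin and 17.49 in control (adjusted p = 0.031 in the authors' deposited table). Of 18 measured genes listed as substrates of geranylgeranyl transferase I, 2 rose and none fell, beside the same 2.03% and 1.81% of all genes. At an unadjusted p under 0.05, 5 were higher and 3 lower in the authors' deposited table, beside the same 15.8% and 17.5% of all genes. Their log2 ratios of totals were above 0 for 14 genes and below 0 for 4 (median 0.27, and 0.46 with both groups scaled to one sum). The 2 that rose were Rhob at 276.39 with simvastatin and 51.40 in control and Rala at 16.92 with simvastatin and 11.94 in control (adjusted p of 0.033 and 0.038 in the authors' deposited table). Of 37 genes chosen by their Rab symbol, a class on which Rabggtb and its partners act, none passed. At an unadjusted p under 0.05, 10 were higher and 1 was lower in the authors' deposited table, beside the same 15.8% and 17.5% of all genes. Of the 37, 33 had log2 ratios of totals above 0 (median 0.24, and 0.44 with both groups scaled to one sum), beside 51.7% of all genes. The 2 with the highest values, Rab38, which serves melanosome formation, and Rab7, of late endosomes, had main transcripts at 181.2 and 111.81 with simvastatin, and 160.32 and 113.67 in control (adjusted p of 0.84 and 0.802 in the authors' deposited table).

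The size of change that the authors' test called at these levels was described from the whole table. Of the 10909 transcripts with a mean group value within the range of these enzymes, 2.02 to 23.95, 215 were called at an adjusted p under 0.05 in the authors' deposited table (1.97%). The median fold of those 215 was 1.85, with a lower quartile of 1.56 and a smallest fold of 1.003. Of the 215, 97 had a fold no larger than the 1.75 of TCONS_00018158. A Rab7 transcript at 12.27 with simvastatin and 0.14 in control was not called (adjusted p = 0.718 in the authors' deposited table). A call thus did not follow from the fold between group values alone. Values per sample were not used, so no interval can be given for the 5 genes, and a p that misses the threshold does not show that their transcripts were equal in the groups.

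**Figure D4:**
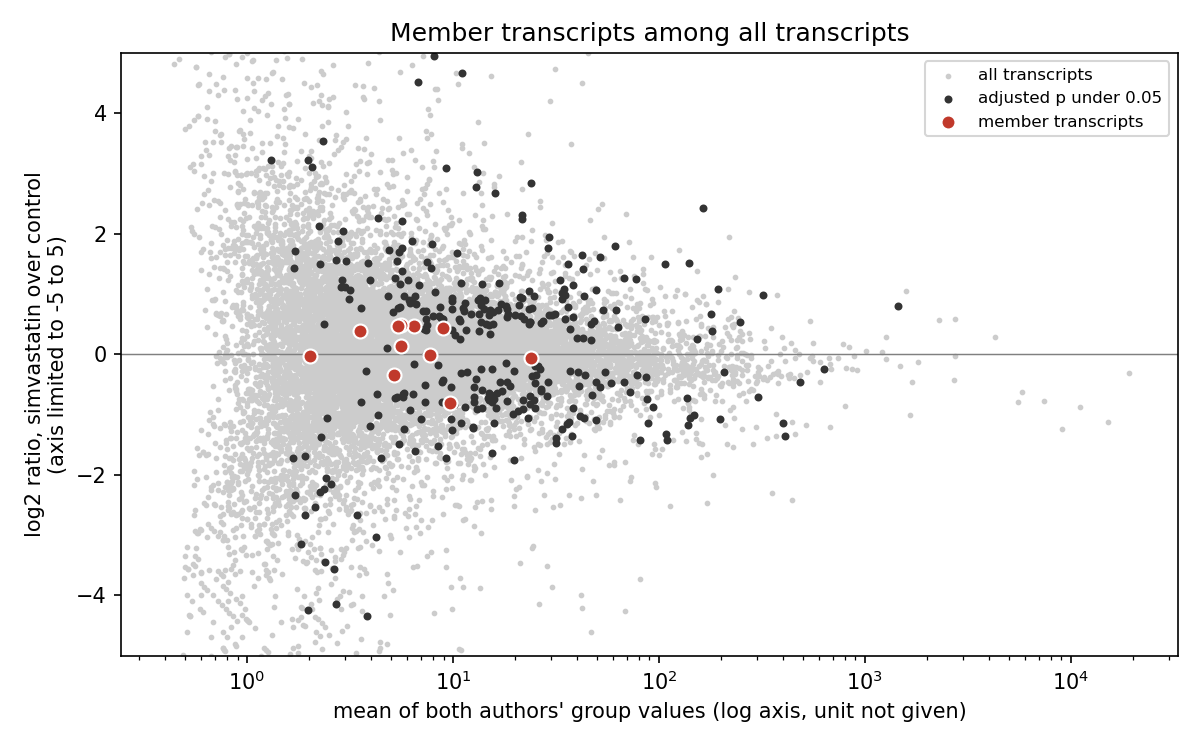
Log2 ratio, simvastatin over control (vertical axis), against the mean of both group values (horizontal log axis, unit not given) for all transcripts in grey, those with an adjusted p under 0.05 in black and the 11 transcripts of the prenylation and CAAX processing enzymes in red. The red points lie between -0.81 and 0.48, and 10 of the 11 between -0.34 and 0.48.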

How the data were processed

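RNA had been sequenced from 6 samples, 3 per group by their titles. The submitters' processing notes name HISAT2 2.0.5, StringTie and the builds GRCm38 and mm10. The deposited table holds, per the file headers, the authors' signal value per group, a signed fold ratio (a score that is negative where simvastatin is lower), a p-value before and after adjustment, and a call of differential expression, here treated as other information. How reads were counted and tested, and in which unit, is not stated there. No test was refitted: calls used the authors' adjusted p under 0.05, as printed to 3 decimals.

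Values of a gene's transcripts were summed, and log2 ratios of the sums were computed with pandas 2.3.3 and Python 3.11.15. Counting steps were tested on simulated data. The p-values rest on 3 samples per group, biological replicates per the series text, and cover only the spread between these. Members and lists were chosen with earlier results of these data known. Beside the members, the rule named up to 4 called genes per list, or else the 2 with the highest values. Alternatives changed the call rule, the transcripts summed, the pseudocount and the scaling. Some results that the rule would name are not reported here.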

Additional observations from a re-analysis of the deposited data

How the results depend on the processing

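With the unadjusted p under 0.05 in place of the adjusted one, 1 transcript of the enzymes was called higher, that of Pggt1b, and 0 lower. The counts stayed at 0 with the authors' own call. They were also 0 with Ensembl transcripts only and with a mean value of at least 1, but these outcomes were fixed in advance. Both settings kept the adjusted p and only filtered transcripts of which none had passed. The lowest mean value of the enzymes' transcripts was 2.015, so the filter on the mean removed none of them. The median log2 ratio of the 5 gene totals, 0.09 as deposited, was 0.29 with both groups scaled to one sum, and lay from 0.07 to 0.13 with the other alternatives. For Fnta the ratio was -0.069 in place of 0.05 with the most abundant transcript alone, and the median of prenyl-binding chaperones and GDP dissociation inhibitors was 0.16 in place of -0.04 with scaling to one sum. With no spread between samples, a shift of up to 0.1 on the log2 scale was taken as unchanged. Of the 51 values recomputed, 33 were unchanged in this sense, 16 moved without a change of sign and 2 changed sign. Many of these labels were fixed in advance. Scaling to one sum shifted every ratio by 0.20, more than 0.1, and centring on the median transcript shifted it by 0.02, less than 0.1. Some alternatives also kept the same transcripts, as for Pggt1b with its 1 transcript. The tally is therefore not a measure of stability. Ensembl transcripts only gave no value for Pggt1b. No paired analysis was possible because the table gives 1 value per group, and for the same reason no replicate could be left out.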

Other observations

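Across the whole table, the calls at an adjusted p under 0.05 were counted by transcript class, with no test between classes. Of 1551 transcripts annotated as decay targets or with a retained intron, 2 were higher and 7 lower in the authors' deposited table (0.58%), beside 143 higher and 108 lower of 9045 coding transcripts (2.78%). Assembled models were called in 1.24% of 4260 cases. Of the 11 transcripts of the prenylation and CAAX processing enzymes, 9 are decay targets, retained introns or assembled models, beside 36.5% of all transcripts. Over the whole table, the median log2 ratios were 0.03 for decay targets and retained introns together, 0.04 for coding transcripts and 0.03 for assembled models.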
